A study of Mus musculus with 2 samples.

Results

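The miR-199/miR-214 and miR-143/miR-145 clusters are groups of miRNAs that are characteristic of mesenchymal cells, and their level was examined in exosomes released by murine bone marrow-derived mesenchymal stem cells (BMSCs). The members were 9 mature miRNAs taken by name from the 1881 miRNAs on the array. They comprised 5 of the miR-199/miR-214 cluster (mmu-miR-199a-3p, mmu-miR-199a-5p, mmu-miR-199b-5p, mmu-miR-214-3p and mmu-miR-214-5p) and 4 of the miR-143/miR-145 cluster (mmu-miR-143-3p, mmu-miR-143-5p, mmu-miR-145a-5p and mmu-miR-145a-3p). MiR-199b-5p is counted with the miR-199/miR-214 cluster as a relative of miR-199a, although its own hairpin lies apart, on chromosome 2. The study asked how hypoxia changes the miRNAs that BMSCs export. The cells came from C57BL/6 mice and were grown for 72 h with exosome-depleted serum, either in normoxia or in 0.2% oxygen, and exosomes were then precipitated from the medium with a reagent kit. RNA of each preparation was hybridized to 1 Agilent mouse miRNA array, so there was 1 array for normoxia and 1 for hypoxia, with no biological replicate and no test.

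MiR-199a-2 and miR-214 are processed from Dnm3os, a long non-coding RNA transcribed from within the dynamin gene Dnm3, which the mesenchymal transcription factor Twist1 activates in the embryo. The cluster is known from skeletal development and from fibrosis, and miR-199a-5p is known as a repressor of Hif1a, the oxygen-regulated subunit of the hypoxia-inducible factor. MiR-143 and miR-145 are processed from the long non-coding RNA Carmn and are best known from smooth muscle cells, where serum response factor and myocardin drive them. From each hairpin the enzyme Dicer cuts a 5p arm and a 3p arm, of which the loaded guide arm usually accumulates and the passenger arm is usually degraded.

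The mature sequences of 4 of the 9 members were found in the RefSeq miRNA table (GRCm38.p6) and are shown so that the arms and their seeds can be compared with each other and with related miRNAs. Capitals mark the seed, bases 2 to 8, which pairs with target mRNAs.
mmu-miR-199a-5p: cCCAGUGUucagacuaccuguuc
mmu-miR-199a-3p: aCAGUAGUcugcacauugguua
mmu-miR-214-5p: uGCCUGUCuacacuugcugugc
mmu-miR-214-3p: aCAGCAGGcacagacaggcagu
The 4 seeds differ from each other. The GC share was 40.9% in miR-199a-3p, 52.2% in miR-199a-5p, 54.5% in miR-214-5p and 59.1% in miR-214-3p.

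The following hairpins show how the arms lie on the shared transcript, with the mature arms in capitals, the 5p arm first. The Mir199a-2 hairpin lies at chr1:162217814-162217923 and the Mir214 hairpin at chr1:162223368-162223477, both on the plus strand of GRCm38.p6 and 5444 bases apart.
Mir199a-2: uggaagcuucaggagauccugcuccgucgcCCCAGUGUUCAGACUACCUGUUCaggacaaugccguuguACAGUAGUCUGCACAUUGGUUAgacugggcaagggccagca
Mir214: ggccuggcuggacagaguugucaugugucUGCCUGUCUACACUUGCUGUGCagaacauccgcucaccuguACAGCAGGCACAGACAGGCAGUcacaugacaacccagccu
Both hairpins lie inside Dnm3os and inside Dnm3 in the gene table. The same arms of miR-199a are also encoded by Mir199a-1, inside Dnm2, and miR-199b by a hairpin inside Dnm1. MiR-199b-3p is identical to miR-199a-3p over all 22 bases, so the miR-199a-3p signal can come from any of these 3 hairpins. MiR-214, in contrast, has 1 hairpin in the gene table. Mir143 and Mir145a both lie inside Carmn.

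Each array held 58594 spots, of which 56430 belonged to 4415 miRNA probes. The processed signal of a spot is its intensity above background in the scanner's linear units, before any normalization between arrays. Detection of a probe required that the software marked more than 50% of its unflagged spots as well above background, and a miRNA counted as detected through any such probe. Among detected probes the spot SD had a median of 9.87% of the signal in normoxia and of 15.4% in hypoxia, and the scanner software marked the hypoxia array for evaluation because of this spread and of its dim labelling spike-ins. SD and standard error (SE) below are over spots of 1 array. They carry the noise of printing and scanning only, and a difference between cultures or exosome preparations cannot be told apart from a difference between oxygen levels. Likewise, fewer vesicles and less of a miRNA per vesicle cannot be told apart. The signals of different probes are not compared as levels, because probes differ in how well they hybridize.

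Exosomes of both conditions carried the same 5 members. MiR-199a-3p, miR-199a-5p, miR-199b-5p, miR-214-3p and miR-143-3p were detected on both arrays, and miR-214-5p, miR-143-5p and both arms of miR-145a on neither. The share was 55.6% of the members, whereas detection reached 12.0% of all miRNAs on the array in normoxia and 10.6% in hypoxia. Of 22 other miRNAs usual in stromal cells, 19 were detected in normoxia and 20 in hypoxia. Members and list were chosen with earlier results of these data known, so these shares are a description only. In the miR-199/miR-214 cluster 4 of 5 members were detected and in the miR-143/miR-145 cluster 1 of 4. The scanner software's own call gave the same 5 on each array.

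MiR-199a-3p had little difference between the arrays on the normalized mean of its 2 probes, which disagreed in direction. On its brighter probe the signal was 548 ± 34.1 in normoxia and 464 ± 39.4 in hypoxia (mean ± SD, n = 14 spots each). The spots ran from 473 to 591 in normoxia and from 396 to 523 in hypoxia, so the lower part of the normoxia range was shared with hypoxia. On the dimmer probe it was 134 ± 12.5 and 109 ± 20.0 (n = 15 spots each), again with overlap. Unnormalized, both probes were lower in hypoxia, with log2 differences of −0.24 and −0.30. After quantile normalization, which sets probes of equal rank to equal values, they gave −0.15 ± 0.041 and 0.21 ± 0.077 (SE over spots), opposite in sign. Their mean was 0.029 ± 0.043 (SE over spots), or 1.02-fold. This SE does not cover the disagreement between the probes, so a mean near 0 is an average of opposite values.

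MiR-199a-5p, the opposite arm of the same hairpins, could be measured on 1 of its probes. Normoxia gave 45.4 ± 5.62 there (SD over n = 14 spots) and hypoxia 35.7 ± 7.36 (n = 13), with spots from 35.8 to 54.6 and from 20.4 to 53.2. The ranges overlapped, and the hypoxia spots reached lower. The other probe had no spot well above background on either array, with means of 4.33 and 2.13, and was not used. Normalized, hypoxia minus normoxia came to 0.17 ± 0.095 on the log2 scale (SE over spots), less than 2 SE from 0. The unnormalized value was −0.35, so that its direction depended on the scaling.

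MiR-199b-5p, from a hairpin on another chromosome, had a small positive difference. In normoxia its brighter probe gave 117 ± 8.42 (SD over n = 14 spots) and in hypoxia 108 ± 11.7 (n = 15). The dimmer probe gave 30.1 ± 5.26 and 27.4 ± 5.78 (SD over n = 15 spots each) in that order. The spots of the arrays overlapped for both probes. The probes agreed after normalization, with log2 differences of 0.42 ± 0.049 and 0.46 ± 0.10 (SE over spots). Their mean of 0.44 ± 0.057 (SE over spots), or 1.36-fold, exceeded the spot error but not the 2-fold threshold of the study, and without normalization it was −0.12.

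MiR-214-3p, the guide arm of miR-214, which is known to restrain bone formation through Atf4, was the member with the largest difference. On the brighter probe the mean signal was 112 ± 19.1 in normoxia and 196 ± 34.7 in hypoxia (SD over n = 15 spots on each array). The normoxia spots ran from 83.0 to 137 with a median of 115, and the hypoxia spots from 131 to 239 with a median of 209. Thus 14 of the 15 hypoxia spots were brighter than every normoxia spot. The signal was 1.75-fold higher before normalization, and 2.29-fold higher after it, a log2 difference of 1.20 ± 0.091 (SE over spots).

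The dimmer probe of miR-214-3p differed in the same direction. Its normoxia mean was 12.4 ± 4.34 (SD), with 2 of 14 spots well above background, and its hypoxia mean 29.8 ± 10.9 (SD), with 14 of 15 spots above. It was therefore detected in hypoxia only. Set against the lowest detected normalized signal in normoxia, it was at least 3.01-fold higher in hypoxia, and at least 2.06-fold higher without normalization. Of its 15 hypoxia spots, 11 were brighter than every normoxia spot and the lowest read −0.37.

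MiR-143-3p, the guide arm of miR-143, which is known to repress Elk1 in smooth muscle, was the member of its cluster that could be measured. Its brighter probe gave 58.7 ± 3.27 in normoxia (SD over n = 14 spots) and 60.9 ± 12.9 in hypoxia (n = 15). For the dimmer probe the means were 35.4 ± 6.12 (n = 14) and 38.6 ± 12.2 (n = 13), where 1 hypoxia spot of only 4.37 had not been flagged as an outlier. On both probes the hypoxia spots scattered on either side of the normoxia spots. The unnormalized probes differed by 0.053 and 0.13 on the log2 scale and the normalized ones by 0.58 ± 0.082 and 0.61 ± 0.14 (SE over spots). The mean was 0.59 ± 0.082 (SE over spots), or 1.51-fold, against 0.089 without normalization.

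**Figure D1:**
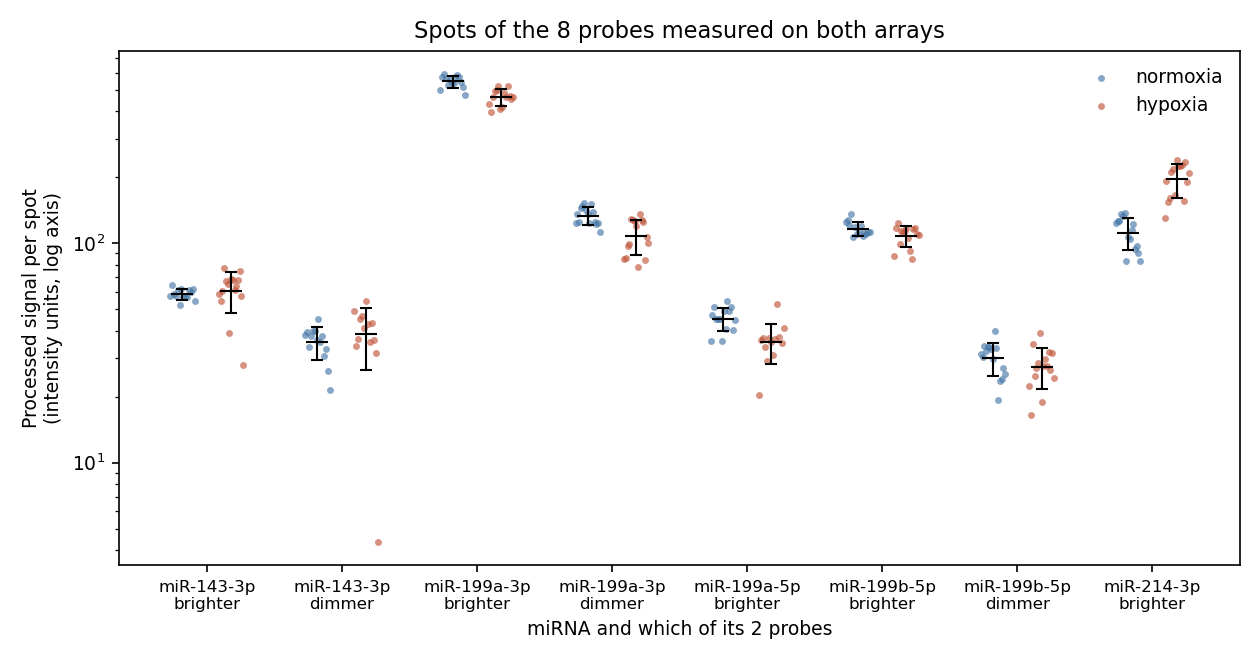
Processed signal of every unflagged spot (intensity units, log axis) for the 8 probes of the members measured on both arrays, in normoxia (blue) and hypoxia (red); black bars are the mean ± SD over spots. For the brighter probe of miR-214-3p 14 of 15 hypoxia spots lie above all normoxia spots, while the ranges of the other 7 probes overlap more.

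Across the 8 measured probes of the members, the unnormalized spots of the arrays overlapped for every probe, whereas for 51.5% of all 305 probes measured on both arrays they did not overlap. This summary was added with the values in view.

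The probe means of the undetected members lay below the median of the negative control spots. MiR-214-5p, the passenger arm of miR-214, had probe means between −3.78 and 0.873 in normoxia and between −3.50 and 1.70 in hypoxia over 4 probes, with 0 of 27 and 0 of 25 spots well above background. MiR-143-5p, the passenger arm of miR-143, had probe means of −2.10 and 1.51 in normoxia and −2.03 and 0.948 in hypoxia, and 1 of its 28 hypoxia spots, at 16.2, was well above background.

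MiR-145a-5p, the guide arm of miR-145 and a known repressor of Klf4 and Klf5, read −0.755 and −0.217 on its probes in normoxia and −3.65 and −1.87 in hypoxia. None of its 30 spots on either array was well above background, and its highest spots were 3.72 and 2.32. MiR-145a-3p, the passenger arm, had probe means from −0.926 to 2.98 in normoxia and from −0.942 to 2.49 in hypoxia over 4 probes, with 0 of 30 and 0 of 28 spots above background. Of the guide arms of the 2 miRNAs inside Carmn, therefore, miR-143-3p was detected on both arrays and miR-145a-5p on neither.

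For reference, the negative control spots had a median of 4.25 and a 95th percentile of 9.49 on the normoxia array, and 4.18 and 9.95 on the hypoxia array. The 12 probes of the 4 undetected members had 117 unflagged spots in normoxia, of which 0 exceeded that percentile, and 111 in hypoxia, of which 1 did. The lowest signal of a detected probe was 14.5 in normoxia and 13.5 in hypoxia, and no probe with a lower mean counted as detected. The 4 members may still have been present at a level too low to detect. A fold is not given for these 4 members.

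**Figure D2:**
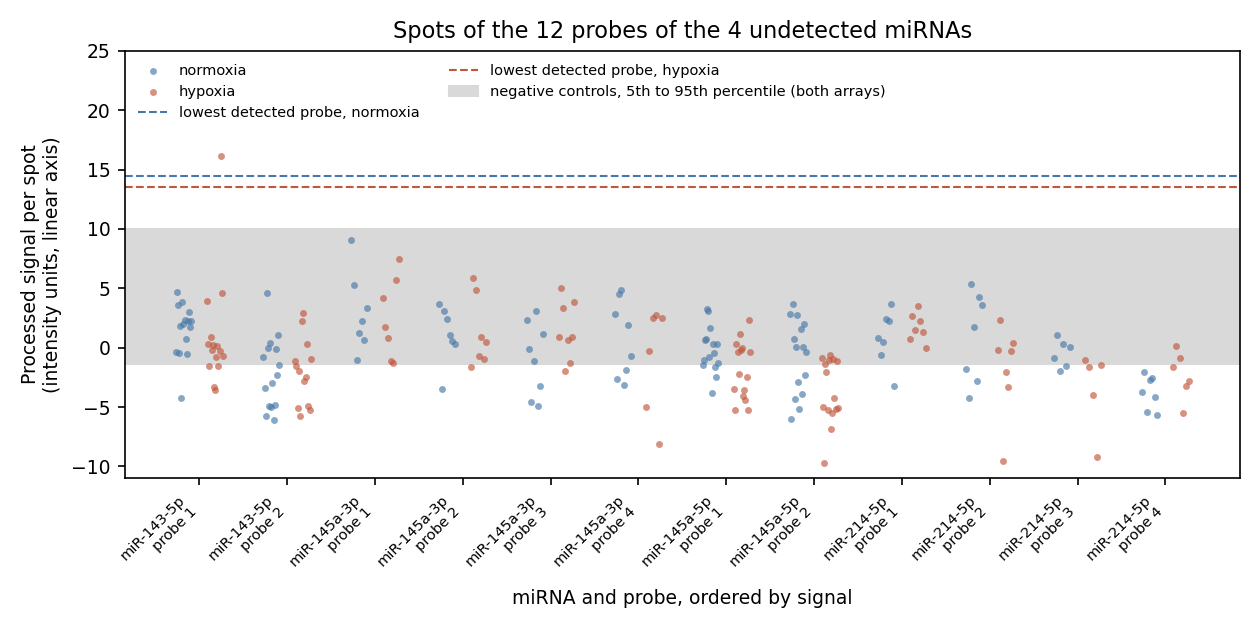
Processed signal of every unflagged spot (intensity units, linear axis) for the 12 probes of miR-143-5p, miR-145a-3p, miR-145a-5p and miR-214-5p in normoxia (blue) and hypoxia (red), with the 5th to 95th percentile range of negative controls over both arrays (grey band) and the lowest detected probe of each array (dashed lines, 14.5 and 13.5). All spots but 1 hypoxia spot of miR-143-5p (16.2) lie below the dashed lines.

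The members were then placed among the 180 miRNAs measured on both arrays. Of the 5 measured members 1, miR-214-3p, was at least 2-fold higher in hypoxia, as were 18.3% of the 180. Of the members 0 were at least 2-fold lower, against 10.0% of the 180. The share among the members, 1 of 5, was close to the background. The median log2 difference of the 4 measured miR-199/miR-214 members was 0.30 and that of all 5 members was 0.44, beside 0.17 over the 180. MiR-214-3p was number 28 of the 180 from the highest, and 15.0% of them had a higher difference. MiR-143-3p was number 57, miR-199b-5p number 72, miR-199a-5p number 90 and miR-199a-3p number 101, so the last 2 lay at the middle of the distribution. For comparison, miR-210-3p, the miRNA best known as induced by hypoxia-inducible factor, had a difference of 5.30 ± 0.035 (SE over spots).

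**Figure D3:**
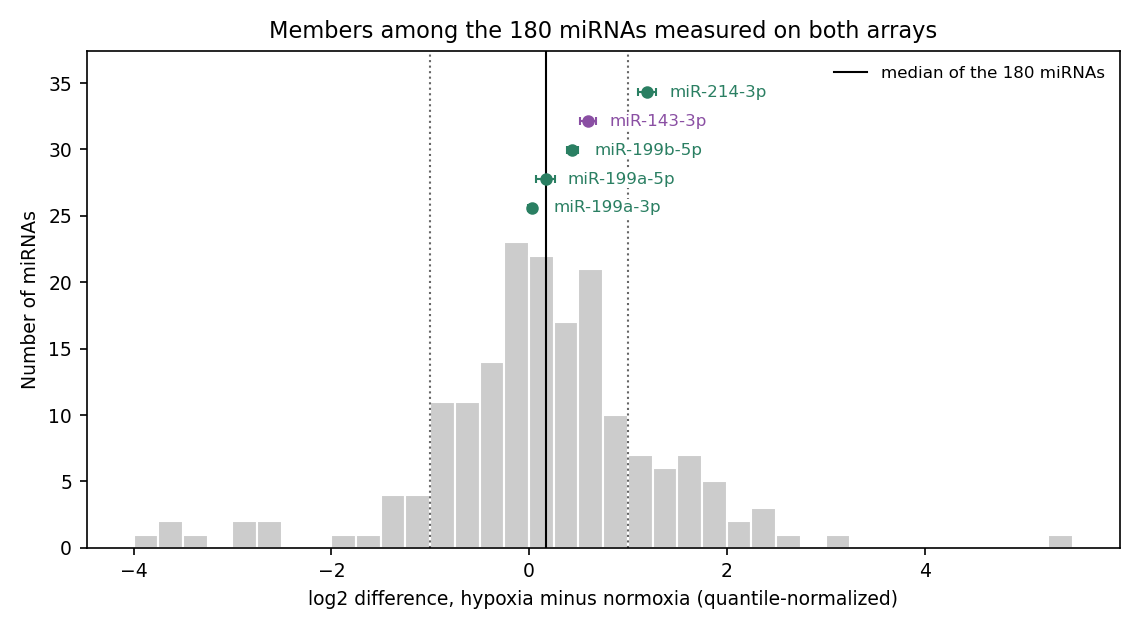
Log2 difference, hypoxia minus normoxia, after quantile normalization: grey bars count the 180 miRNAs measured on both arrays, the black line is their median (0.17), dotted lines mark 2-fold, and points with SE over spots are the 5 measured members (green miR-199/miR-214, purple miR-143/miR-145; their height has no meaning). MiR-214-3p (1.20) lies past the 2-fold line and the other 4 between 0.029 and 0.59.

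The members that derive from a common transcript were compared with each other. Differences between members were taken on unnormalized signals, because a single scaling factor for each array cancels in them. MiR-214-3p differed from miR-199a-3p by 1.08 ± 0.10 and from miR-199a-5p by 1.16 ± 0.13 (log2, SE over spots), so the signal of miR-214-3p relative to miR-199a-3p was 2.12 times as high on the hypoxia array as on the normoxia array. Both differences were far larger than the spot error, but no background of such differences over other pairs of miRNAs was taken. For miR-214-3p and for miR-199a-5p, only 1 probe was measured on both arrays. Quantile normalization gave 1.17 and 1.03. The miR-199a signal is also fed by hairpins outside Dnm3os, and their share was not measured.

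Before normalization, the arms of miR-199a did not differ from each other beyond the spot error. The unnormalized difference between miR-199a-5p and miR-199a-3p was −0.076 ± 0.10 (log2, SE over spots). After quantile normalization it was 0.14, of opposite sign. MiR-199b-5p was higher than miR-199a-5p by 0.23 ± 0.11 and than miR-199a-3p by 0.15 ± 0.071 (log2, SE over spots), about 2 SE in each case, and by 0.27 and 0.41 after quantile normalization. No mature sequence of miR-199b-5p was found, so a signal shared between its probes and those of its relative miR-199a-5p was not examined. MiR-214-3p was higher relative to miR-199b-5p as well, by 0.93 ± 0.11 (SE over spots) and by 0.76 after quantile normalization.

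Between the clusters, miR-143-3p lay between miR-214-3p and the miR-199 members. It was below miR-214-3p by 0.72 ± 0.12, where the value is the log2 difference of miR-214-3p minus that of miR-143-3p with its SE over spots. It was above miR-199a-3p by 0.36 ± 0.093, above miR-199a-5p by 0.44 ± 0.13 and above miR-199b-5p by 0.21 ± 0.10 (log2, SE over spots). The last of these differences was about 2 SE and the others exceeded 3 SE. After quantile normalization they were 0.60, 0.57, 0.43 and 0.16 in the same order. Spots of a probe are not replicates of a condition, so none of these differences was tested between conditions.

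The direction of the smaller differences depended on the scaling of the arrays. Over 6 scalings the log2 difference of miR-214-3p lay between 0.81 without normalization and 1.74 when each array was scaled to the 75th percentile over every probe. All 6 values were above 0 and 4 were at least 2-fold. With the hybridization spike-ins it was 0.94. MiR-143-3p was above 0 in all 6 as well, from 0.089 to 1.02, and past 2-fold in 1. MiR-199b-5p was below 0 in 1 of 6, miR-199a-3p in 2 of 6 and miR-199a-5p in 3 of 6. The scalings move the median of all 180 miRNAs too, by −0.44 without normalization and by 0.49 with the 75th percentile of all probes. Every scaling other than quantile normalization applies 1 factor to each array, which cancels when that median is subtracted. Relative to the median each member therefore has only 2 distinct values, and their closeness is no check of the scaling. With a single factor and with quantile normalization, in that order, miR-214-3p gave 1.08 and 1.03, miR-143-3p 0.36 and 0.43 and miR-199b-5p 0.15 and 0.27. MiR-199a-3p gave −0.0019 and −0.14 and miR-199a-5p −0.078 and 0.0015.

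**Figure D4:**
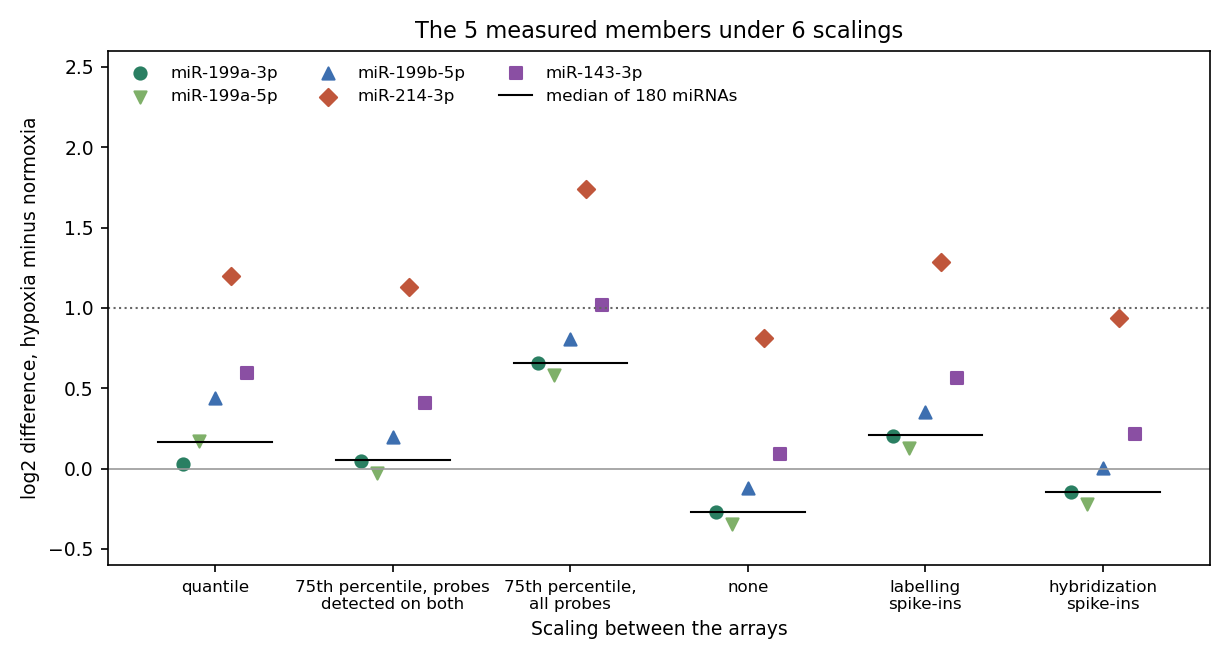
Log2 difference, hypoxia minus normoxia, of the 5 measured members under 6 scalings of the arrays (x axis), with the median of the 180 miRNAs as a black line, 0 as a grey line and 2-fold as a dotted line. MiR-214-3p is the highest member under each of the 6, from 0.81 to 1.74, and miR-199a-3p and miR-199a-5p lie near the median. All scalings but quantile shift the members and the median together, so their order cannot change among those.

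Related miRNAs outside the clusters were examined for signals that could be shared by sequence. MiR-761 has the same seed as miR-214-3p and matches it at 13 of 22 positions.
mmu-miR-761: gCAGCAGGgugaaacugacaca
It was not detected, with 0 of 25 spots above background in normoxia and 0 of 28 in hypoxia and probe means no higher than 1.11 and −1.14. MiR-145b, a relative of miR-145a by name, was not detected either, with 0 of 29 and 0 of 25 spots. Among miRNAs with at least 2 measured probes, those whose difference was closest to the members' median of 0.44 were miR-10a-5p at 0.44 ± 0.055, miR-6981-5p at 0.46 ± 0.030 and miR-151-5p at 0.49 ± 0.050 (SE over spots). With 1 value for each, such closeness is a description only.

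Other miRNAs usual in stromal cells were counted as context. Of 22 listed, 19 were detected in normoxia and 20 in hypoxia, and 18 were measured on both arrays, with a median log2 difference of 0.17 and a range from −0.57 to 1.38. At least 2-fold higher were 2 of the 18, miR-99b-5p at 1.38 and miR-152-3p at 1.00, and 0 were at least 2-fold lower. The shares over all 180 measured miRNAs were 18.3% and 10.0%. MiR-152-3p lay at the threshold itself. MiR-99b-5p rests on 1 of its 2 probes, whose normoxia signal of 15.0 was close to the lowest detected one, 14.5. Of 22 markers of other cell types, 6 were detected in normoxia and 2 in hypoxia. None of the 6 epithelial markers (the miR-200 family members and miR-205-5p) was detected on either array. Of the 7 blood cell markers, 3 were detected in normoxia and 1 in hypoxia, and miR-451a, the red cell miRNA, read 448 in normoxia and 26.5 in hypoxia on its brightest probe. The only liver marker listed, miR-122-5p, read 78.5 in normoxia and 7.04 in hypoxia, where it was not detected. Of the 4 striated muscle markers, 1 was detected, miR-206-3p, on both arrays with a log2 difference of 0.16. The other 3 were detected on neither array. The brightest probes of all 22 markers summed to 650.2 in normoxia and 73.6 in hypoxia, of which those other than miR-451a gave 202 and 47.1. In such a sum, probes that hybridize well weigh more, so it is not a level of these markers. Of the 22, 5 were at or below 0 on each array. The sum was thus lower in hypoxia, where miR-214-3p was higher, and the markers' part in the members' differences was not tested.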

How the data were processed

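Exosomal RNA of normoxic and of hypoxic BMSCs was measured on 1 array each, on 1 slide, so that position on the slide and condition cannot be told apart. The labels describe reverse transcription of total RNA, whereas the study's methods name a miRNA labelling kit. Images were extracted by the authors in Feature Extraction 11.5.1.1, per the file headers, which name mm9 for the array design. The deposited intensity values are background-subtracted processed signals with no normalization between arrays, and the deposited flags, 0 or 1, mark outlier spots and spots well above background. The deposited value table of the series equals the processed signal.

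A spot was left out if 1 of 4 outlier flags was set, and the others of that probe were averaged. Probe means were quantile-normalized, as the study states. A log2 difference is the mean over probes detected on both arrays. A bound sets the signal against the lowest detected signal of the dim array. The functions were tested on simulated data. Python 3.11.15, R 4.3.3 and limma 3.58.1 were used.

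The named miRNAs are the 9 members, miRNAs sharing a member's seed, miR-145b, miR-210-3p, the 3 miRNAs with at least 2 measured probes closest to the members' median, and the lists given. Members and lists were chosen with earlier results of these data known. Alternatives were other scalings, spot and probe summaries, filters, the software's summed signal and normexp (offset 50) on the median pixel signal. Precision is limited by the number of arrays.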

Additional observations from a re-analysis of the deposited data

How the results depend on the processing

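No paired analysis was possible because normoxia and hypoxia are represented by a single array each and nothing was tested, and no replicate could be left out. The median log2 difference of the miR-199/miR-214 members, 0.30, was 0.73 with the 75th percentile of all probes, −0.20 without normalization and −0.072 with the hybridization spike-ins. MiR-143-3p, at 0.59, was 0.089 without normalization. The number of members at least 2-fold higher, 1, became 2 with the 75th percentile of all probes, where miR-143-3p joined miR-214-3p. It became 0 without normalization, 0 with the hybridization spike-ins and 0 under normexp, which gave miR-214-3p 0.81. Without a filter on dim probes it was 2, through the undetected miR-214-5p, whose 2.24 rests on 1 probe near background. The share of all measured miRNAs at least 2-fold higher, 18.3%, moved as well, to 32.2% with the 75th percentile of all probes, 11.1% without normalization, 13.9% with the hybridization spike-ins, 6.11% under normexp and 24.2% without the filter. The causes were not tested.

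Of 60 values of single members under 12 alternatives, 48 moved by less than the spot SD and 12 moved further; 10 changed sign, and none of these belonged to miR-214-3p or miR-143-3p. The number of members detected was 5 on each array also with every spot required above background and with the software's call; the scalings do not bear on it, and without a filter it has no value. The value table equals the processed signal and moved nothing. Signal over background limits the 4 undetected members.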
